A study of Mus musculus with 2 samples.

Results

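Sequences that were abundant in one library and nearly missing from the other were collected from small RNA-seq of fetal mouse testes. A member had a length of 16 to 33 nt, at least 50 reads in one library and, after scaling to total reads, less than 5% of that level in the other, with an unlisted sequence taken as 0. The members were thus chosen by their measured read counts, and the difference between the libraries is given for them as a description, with no test. The rule selected 11 sequences of the 7775 that had at least 50 reads in either library, and of 1132769 distinct sequences in all. Only 1 of them was abundant in wild-type (WT) testes alone, which is 0.0136% of the 7358 sequences abundant in WT. The remaining 10 were abundant in *Hsp90α* knockout (KO) testes alone, which is 0.159% of the 6299 sequences abundant in KO.

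Both libraries were made from whole testes of C57BL/6 mice on E16.5. *Hsp90α* encodes a cytosolic chaperone of the HSP90 family and helps many client proteins to fold and mature. The kind of KO allele is not given in the sources used here. Whole testes hold germ cells and somatic cells together. RNA from 20 testes was pooled for each genotype, and each pool gave 1 library. There were therefore no replicates, and every interval below is an exact (Clopper-Pearson) 95% interval that covers counting error only. The WT library held 6409305 reads and the KO library held 5589326 reads. A count of 0 allows a level of up to 3 reads, which is 0.468 reads per 1000000 reads of the library (RPM) in WT and 0.537 RPM in KO. Small RNA counts do not measure *Hsp90α* mRNA, so the genotype was not checked here. The labelled tissue was checked with miRNAs known from germ cells and gonads. Reads inside the Mir295 hairpin of the germ-cell miR-290 cluster numbered 1045 in WT and 1428 in KO, and reads inside the gonadal Mir202 hairpin numbered 5037 in WT and 5466 in KO.

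Several families of small RNA occur in the fetal testis. miRNAs are cut from hairpins by Drosha and Dicer and guide Argonaute proteins through a seed near the 5′ end. piRNAs are longer, often begin with U, are bound by PIWI proteins and silence transposons in germ cells. Fragments of mature tRNAs, often broken near the anticodon loop, are also common in small RNA libraries.

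The KO-only members were all close copies of abundant mouse RNAs. For 10 of 10, a sequence of the same length with at least 10 times as many reads was found that differed from the member by substitution only, and this sequence is called the parent. Each of the 28 substitutions separating the members from their parents was A to C (16) or G to T (12). Substitutions are written with the base of the parent, the position counted from 1 at the 5′ end, and the base of the member. Of the 10 members, 5 carried 1 substitution and 5 carried 3 to 7. The tRNA names used below come from general knowledge of these sequences, since no tRNA set was used. The 5 with 1 substitution are shown first, with the substituted base in capitals, because the position of the capital is what they have in common across unrelated RNAs.
tRNA-Gly G1T: Tcattggtggttcagtggtagaattctcgc
tRNA-Val G1T: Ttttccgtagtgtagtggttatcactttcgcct
miR-26a A18C: ttcaagtaatccaggatCggct
miR-22 A18C: aagctgccagttgaagaCctgt
tRNA-Pro A18C: atcccggacgagcccccC

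The remaining 5 were forms of miR-10b. Their capitals show runs of changed bases inside an otherwise intact miR-10b read.
miR-10b 16-21: taccctgtagaaccgCCtttTt
miR-10b 16-21, ending in A: taccctgtagaaccgCCtttTa
miR-10b 7-15: taccctTtCTCCccTaatttgt
miR-10b 7-16: taccctTtCTCCccTCatttgt
miR-10b 10-16: taccctgtaTCaccTCatttgt
The parents are shown for comparison, in the order of the members above.
tRNA-Gly parent: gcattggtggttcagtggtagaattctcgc
tRNA-Val parent: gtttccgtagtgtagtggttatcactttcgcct
miR-26a parent: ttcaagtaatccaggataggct
miR-22 parent: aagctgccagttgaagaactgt
tRNA-Pro parent: atcccggacgagccccca
miR-10b parent: taccctgtagaaccgaatttgt
miR-10b parent, ending in A: taccctgtagaaccgaatttga

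RefSeq gives the mature forms of these miRNAs as follows (GRCm38.p6), with the seed, bases 2 to 8, in capitals.
miR-10b-5p: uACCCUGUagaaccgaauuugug
miR-26a-5p: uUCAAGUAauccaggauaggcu
miR-22-3p: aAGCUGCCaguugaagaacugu
Mature miR-10b-5p lies in the *Mir10b* gene on chromosome 2 (74726074 to 74726096, plus strand). miR-26a-5p is made from 2 genes, *Mir26a-1* on chromosome 9 (119031811 to 119031832, plus strand) and *Mir26a-2* on chromosome 10 (126995543 to 126995564, plus strand). miR-22-3p lies in *Mir22* on chromosome 11 (75463772 to 75463793, plus strand). The most read form of miR-10b was 1 nt shorter than the RefSeq mature form, so the parent has 22 nt. The 3 miRNAs had 3 different seeds. The A18C substitution lay outside the seed in both miR-26a and miR-22, whereas miR-10b 7-15 and 7-16 were changed at position 7, within it.

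The tRNA-Gly G1T member had the most reads of the 10. It is a 5′ fragment of glycine tRNA, the tRNA that brings glycine to the ribosome. It had 20 reads in WT and 390 in KO (3.12 and 69.8 RPM), so its WT level was 4.47% of its KO level. Its parent was much more abundant and moved the other way, with 36346 reads in WT and 19115 in KO. The parent's KO to WT ratio was 0.603 (0.593 to 0.614) after scaling to total reads. The member therefore amounted to 0.0550% of its parent in WT and 2.04% in KO.

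The tRNA-Val G1T member, of 33 nt, is a 5′ fragment of a valine tRNA. It had 3 reads in WT and 59 in KO (0.468 and 10.6 RPM), a WT level of 4.43%. Its parent had 4844 and 2061 reads, and the member made up 0.0619% of the parent in WT and 2.86% in KO. This parent is itself 1 substitution (G26T) from the most read fragment of this tRNA, which had 124016 reads in WT and 59158 in KO. Both 5′ tRNA fragments thus began with T in place of G, and the unchanged forms of both were lower in KO.

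The A18C member of miR-26a, a miRNA expressed in many tissues, had 3 reads in WT and 148 in KO (0.468 and 26.5 RPM), a WT level of 1.77%. The unchanged miR-26a-5p had 36629 and 38155 reads, a KO to WT ratio of 1.19 (1.18 to 1.21). The member was 0.00819% of it in WT and 0.388% in KO. miR-22, likewise a widely expressed miRNA, gave nearly the same values. Its A18C member had 5 reads in WT and 142 in KO (0.780 and 25.4 RPM), a WT level of 3.07%. The unchanged miR-22-3p had 34006 and 31634 reads, and the member was 0.0147% of it in WT and 0.449% in KO. The longest stretch that the miR-26a and miR-22 members shared was 4 nt.

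The shortest member, of 18 nt, is the 3′ end of a proline tRNA, and its A18C substitution fell on the last base of the CCA end that is added to every tRNA. It had 2 reads in WT and 60 in KO (0.312 and 10.7 RPM), a WT level of 2.91%. The unchanged fragment had 5236 and 5536 reads, and the member was 0.0382% of it in WT and 1.08% in KO. By exact matching, the unchanged fragment lay in the sense of Gm15280, an unprocessed pseudogene, so its tRNA origin rests on the name given here. Position 18 was thus changed in a proline tRNA end and in the interior of miR-26a and miR-22, and 0 of the 11 members ended in CCA.

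miR-10b, a miRNA encoded within the *Hox* D cluster, was the most read parent, with 995541 reads in WT and 986106 in KO and a KO to WT ratio of 1.14 (1.13 to 1.14). None of its 5 KO-only forms was listed in WT. The 16-21 form, with A16C A17C G21T, had 139 reads in KO (24.9 RPM), and 3 reads in WT would have been 1.88% of that level. The 7-15 form, with G7T A9C G10T A11C A12C G15T, had 79 reads (14.1 RPM), for which 3 reads would have been 3.31%. The 7-16 form, with A16C in addition, had 54 reads (9.66 RPM), for which 3 reads would have been 4.84%. The 10-16 form, with G10T A11C G15T A16C, had 60 reads (10.7 RPM), for which 3 reads would have been 4.36%. The form of 16-21 that ends in A had 51 reads in KO (9.12 RPM). There a count of 0 allows up to 5.13% of the KO level, which is above the 5% limit, so its place among the members was not certain at this depth.

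In 4 of these 5 forms, every A and every G between the first and the last changed base was substituted and every C and T was kept. The exception was 10-16, in which A12 was unchanged. Single substitutions of the miR-10b parent did not differ in this way. A16C stood at 12.3 reads per 100000 parent reads in WT and 9.53 in KO, G21T at 9.44 and 9.63, and G7T at 6.73 and 4.77. A17C was the highest of these in KO, with 102 reads in WT and 158 in KO. Reads of the miR-10b parent with 2 or more substitutions, all A to C or G to T, numbered 15 in WT and 443 in KO (1.51 and 44.9 per 100000 parent reads). Members, which were chosen on this difference, held most of the KO reads, and 111 reads (11.3 per 100000) belonged to sequences below the 50-read minimum. Every purine from the first to the last change was substituted in 60 of these 111 reads (54.1%), and in 4 of the 15 WT reads. The opposite changes, C to A or T to G, did not show this difference, with 90 reads in WT and 88 in KO.

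Other end forms of miR-10b, which the rule did not use, carried such runs as well. The 23-nt form that starts 1 nt later had 117804 reads in WT and 125454 in KO. Reads of it with 2 or more A to C or G to T substitutions numbered 1 in WT and 71 in KO, or 0.849 and 56.6 per 100000. The 24-nt form that starts with T had 3.54 per 100000 in WT and 42.7 in KO, and the 21-nt form that starts 1 nt later had 1.56 and 39.5. The 23-nt form that starts with T had 20.9 and 76.3 per 100000, the lowest KO to WT ratio and the highest WT rate of the 4 other forms. Some of the most read patterns of the form that starts 1 nt later are printed here with changed bases in capitals, because they show which position the run follows.
5 changes, 10 to 16: accctgtagCCccTCCtttgtgt
7 changes, 6 to 15: accctTtCTCCccTCatttgtgt
2 changes, 16 to 20: accctgtagaaccgaCtttTtgt
They had 15, 14 and 12 reads in KO and 0 in WT. The first ended at read position 16, where the 7-16 and 10-16 members ended, although the miRNA is displaced by 1 nt in this form. The second covered the same nucleotides of miR-10b as the 7-16 member, and so was displaced by 1 in the read. The patterns therefore kept neither a fixed read position nor a fixed miRNA nucleotide throughout.

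The same substitutions were counted in sequences other than the members and their parents. The survey took 246 other sequences with at least 1000 reads in each library that share no 16 nt with a member or a parent; 114 of them lay in miRNA hairpins. They totalled 1221197 reads in WT and 1253947 in KO. The survey was made after the members had been seen. Forms of the same RNA with different lengths or ends were kept as separate sequences, and no check of miRNA or tRNA family was made. Counts of sequences below are therefore not counts of independent RNAs. At position 18, an A was read as C at 14.1 per 100000 in WT (4 reads) and 495 per 100000 in KO (124 reads). The rate was higher in KO for 13 of 13 sequences. The KO to WT ratio was 35.0 (13.3 to 130). A first-base G was read as T at 45.4 per 100000 in WT (5 reads) and 2047 in KO (230 reads). This rate was higher in KO for 8 of 8 sequences, with a ratio of 45.1 (19.1 to 140). The rates of the 5 members fell on both sides of these. Per 100000 parent reads in KO, A18C stood at 388 in miR-26a, 449 in miR-22 and 1084 in tRNA-Pro, and G1T stood at 2040 in tRNA-Gly and 2863 in tRNA-Val.

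Position 6 also stood out in the survey, although no parent has an A there. An A at position 6 was read as C at 14.5 per 100000 in WT (29 reads) and 194 in KO (384 reads). This rate was higher in KO for 56 of 61 sequences and lower for 2, with a ratio of 13.4 (9.15 to 20.2). The next highest A to C ratio among positions 1 to 25 was 3.33 (1.76 to 6.74) at position 19. Summed over every position, A to C stood at 44.8 per 100000 bases in WT and 60.3 in KO, and G to T at 43.8 and 43.2. The like G to T totals hold differences in both directions. Summed G to T reads at position 9 were fewer in KO, with 655 in WT and 367 in KO and a ratio of 0.514 (0.451 to 0.584). By sequence this rate was lower in KO for 17 of 61 and higher for 9, so it was not a shift shared by most sequences. C to A was lower in KO when summed over every position, with 93.8 per 100000 bases in WT and 69.0 in KO. That is a ratio of 0.736 (0.710 to 0.763). The lower rates were spread over positions 2 to 5 and 8 to 17, with ratios from 0.266 at position 9 to 0.709 at position 16. At position 11 C to A stood at 139 per 100000 in WT and 51.0 in KO, and at position 12 at 144 and 50.6. At position 6 it was higher in KO, with 24.3 and 109.0 per 100000, a ratio of 4.49 (3.27 to 6.30) and 44 of 52 sequences higher. At position 18 it was 25.9 and 44.3, a ratio of 1.71 (1.31 to 2.25).

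Runs of changes like those in miR-10b were found in the surveyed sequences too. Reads with 3 or more substitutions, all A to C or G to T, numbered 17 in WT and 399 in KO, or 1.39 and 31.8 per 100000, a ratio of 22.9 (14.1 to 39.6). They were more frequent in KO for 139 sequences and in WT for 3. Every purine from the first to the last change was substituted in 77.2% of the 399 KO reads, against 17.6% of the 17 WT reads. In KO the runs began most often at position 5 (77 reads) or 6 (55 reads) and ended most often at position 15 (122 reads) or 16 (45 reads). Reads with 3 or more C to A or T to G changes numbered 44 and 35, with a ratio of 0.775 (0.482 to 1.24). With 2 or more of these opposite changes, reads were fewer in KO. They numbered 411 in WT and 258 in KO, a ratio of 0.611 (0.521 to 0.716). With 2 or more A to C or G to T changes, reads numbered 80 and 587, a ratio of 7.15 (5.65 to 9.14). In single-end reads of this kind the position counted from the 5′ end of the RNA is also the sequencing cycle. Whether the substitutions were present in the RNA, or arose while the library was made or read, was not tested, and genotype and library cannot be told apart with 1 library each.

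The single changes of tRNA-Gly, miR-26a, miR-22 and tRNA-Val also appeared on shorter or longer forms of the same RNAs, with more reads in KO. G1T made up 0.0841% of the 31-nt tRNA-Gly fragment in WT and 2.18% in KO (18 and 237 reads), and 0.0848% and 2.35% of the 32-nt fragment (15 and 174 reads). A18C was read 1 time in WT and 9 times in KO in 21-nt miR-26a, which is 0.0368% and 0.325%. In the more read 23-nt form of miR-26a it was read 0 times in WT and 15 times in KO (0.593%), and in 21-nt miR-22 0 and 2 times (0.380%). In KO the share of changed reads thus lay between 2.04% and 2.35% at 30 to 32 nt of tRNA-Gly and between 0.325% and 0.593% at 21 to 23 nt of miR-26a. G1T of the 32-nt tRNA-Val fragment had 2 and 9 reads. For the tRNA-Pro change, which falls on the last base of its member, no such share of other forms is given. Sequences sharing 16 nt of that member with the substitution, wherever they start, had 6 reads in WT and 4 in KO. Their ratio was 0.764 (0.159 to 3.22). This is another measure with few reads, so it does not show whether the change behaved differently on this RNA.

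Of the 10 KO-only members, 7 had 22 nt, against 695 of the 6299 sequences abundant in KO, and these 7 were the miRNA forms. T was the first base of 8 and A of 2, and T began 27.4% of the sequences abundant in KO. Of these 8, 5 were forms of miR-10b, and in tRNA-Gly and tRNA-Val the T was the substitution itself. With exact matching to the GENCODE M21 transcripts, 10 of 10 matched no transcript, as did 74.1% of the sequences abundant in KO. Variants with 1 substitution from a sequence at least 10 times as abundant were common: 317 of 7358 in WT and 275 of 6299 in KO, of which 42 and 41 were A to C or G to T. Abundant variants of that kind were therefore present in both libraries. Together the 10 members had 1182 reads in KO, 0.0211% of that library, and 33 reads in WT.

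Shared stretches of 12 nt or more grouped 4 of the 11 members into 2 pairs, namely the 2 forms of miR-10b 16-21 (21 nt shared) and the forms 7-15 and 7-16 (15 nt shared). By comparison, 6091 of the 6299 sequences abundant in KO shared such a stretch with another. miR-10b 10-16 was in no pair, although 4 other members came from the same miRNA. No pair of members was complementary over 12 nt or more, and the longest complementary stretch among the 55 pairs was 7 nt. Among the sequences abundant in KO there were 246 such pairs, which held 116 of the 6299 sequences. In WT there were 437, which held 230 of the 7358 sequences. Such pairs were thus rare among all abundant sequences, and their absence from 11 members says little about the members.

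The limits of the rule were close to several members. Just within the 5% limit lay miR-22 A18C (3.07%), tRNA-Val G1T (4.43%) and tRNA-Gly G1T (4.47%). Just outside it were 3 more tRNA fragments with G1T: a tRNA-Val fragment with 92 and 1212 reads in WT and KO (6.62%), a 31-nt tRNA-Gly fragment with 18 and 237 reads (6.62%) and a 32-nt tRNA-Val fragment with 21 and 251 reads (7.30%). The 3 sequences just under the 50-read minimum had 49, 48 and 43 reads in KO and 0 in WT, and each differed from an abundant sequence by A to C or G to T only. The last of these was miR-10b with G7T A9C G10T A11C A12C, which is the 7-15 form without its final change.

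The WT-only member was of another kind. It had 30 nt, no parent that differed by substitution, and an exact match in 190 annotated genes.
WT-only member: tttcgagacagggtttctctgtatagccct
It corresponds to the antisense strand of B1, a short interspersed element (SINE) found in very many copies in the mouse genome and a known source of fetal piRNAs. This name comes from general knowledge of the element, since no repeat library was used. The match was in the sense of the transcript in 92 genes and antisense in 99, so the strand of origin cannot be read from it. The member had 122 reads in WT and 5 in KO (19.0 and 0.895 RPM), a KO level of 4.70% of that in WT. It began with T (U in the RNA) and had A at position 10. Only 5 reads of 24 to 33 nt in WT and 2 in KO started with the reverse complement of its first 10 nt.

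Related reads were lower in KO as well, but less so. The 687 sequences that shared at least 16 nt with the member had 1390 reads in WT and 249 in KO (217 and 44.5 RPM), a KO to WT ratio of 0.205 (0.179 to 0.235). The member's own reads are left out of these sums and of those below. Reads with the same first 16 nt numbered 443 and 43, a ratio of 0.111 (0.0794 to 0.152). The most read relatives are given because they show which ends the lower reads shared.
28 nt: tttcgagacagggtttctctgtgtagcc
29 nt, starting at position 2: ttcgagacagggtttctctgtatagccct
30 nt, A23G: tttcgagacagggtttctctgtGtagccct
28 nt, same start: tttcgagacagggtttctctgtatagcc
The first had 102 reads in WT and 9 in KO (ratio 0.101), and the A23G form had 71 and 7 (0.113). The fourth, which is the member without its last 2 bases, had 53 and 6 (0.130). The second, which lacks the first base, had 73 and 13, a ratio of 0.204. The member's own ratio of 0.0470 was below all of these.

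The lower level held over the lengths of the related reads. Reads of 16 to 23 nt numbered 40 in WT and 9 in KO (ratio 0.258), those of 24 to 27 nt 314 and 64 (0.234; 0.176 to 0.307), and those of 28 to 33 nt 989 and 167 (0.194; 0.163 to 0.228). Most began with T (1316 and 226 reads, ratio 0.197). For comparison, 221 abundant WT sequences of 24 to 33 nt had exact matches in 10 or more genes and none in miRNA or structural RNA. Their median KO to WT ratio was 0.445, and 5% of them lay below 0.208. These are ratios of single sequences, not sums, and by its definition the set takes in the member and several of its relatives. The median was 0.856 for all 3180 abundant WT sequences of 24 to 33 nt and 1.13 for the 724 in miRNA transcripts. In whole testes, fewer germ cells and less of this RNA per germ cell cannot be told apart. The sequences just outside the 5% limit in WT had 54 and 3 reads (6.37%), 99 and 6 reads (6.95%) and 50 and 4 reads (9.17%). The WT-only member was thus separated from the next by few KO reads. The first and the last of these matched miRNA transcripts, so the 724 sequences above take them in. Both begin with bases that also end a 28-nt relative of the member, which had 24 reads in WT and 2 in KO.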

How the data were processed

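Small RNA was measured in 1 WT and 1 *Hsp90α* KO library (TruSeq Small RNA, MiSeq, 50-bp single-end). The authors clipped the adaptor and kept reads of more than 10 bp; the deposited tables list each distinct sequence with its read count, not normalized, and without coordinates. Per the labels the build was mm9. Counts were scaled to the total reads of each table. The members, lists and rules were chosen with earlier results of these data known. Sequences were matched exactly to 141767 GENCODE M21 transcripts, of which 2202 were miRNA hairpins. Mature miRNAs came from RefSeq (GRCm38.p6), and no coordinates of the 2 builds were joined. The rule fixed for printing was to leave out sequences with no transcript match. It was departed from after the values were seen, because each KO-only member differed by substitutions from an abundant mouse RNA. The search for substitutions and the survey of 246 sequences were also added then. Tools were Python 3.11.15, numpy 2.4.6, pandas 2.3.3 and scipy 1.17.1. The selection and the intervals were tested on simulated data.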

Additional observations from a re-analysis of the deposited data

How the results depend on the processing

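No paired analysis was possible because each genotype had 1 library. The number of sequences abundant in WT only (1) became 2 with a minimum of 30 reads, 0 with a limit of 2% and 4 with a limit of 10%. It was 8 with every length, and 13 with a minimum of 20 reads, a minimum chosen after seeing the data. When KO reads, but not WT reads, were summed over the same first 16 nt, it was 0. The number abundant in KO only (10) became 18 with 30 reads, 4 with 100 reads, 6 with 2% and 30 with 20 reads. With only the WT reads summed over the same first 16 nt, the number was 3. That sum takes in the unchanged parents of the A18C members, which share their first 16 nt. The number abundant in KO only was 8 with scaling to miRNA reads, 14 with 10% and 11 with every length. Of these, all 8, 18 and 14 sequences under miRNA scaling, 30 reads and 10% differed from a parent by A to C or G to T only, as did 29 of 30 with 20 reads. In WT, 1 of the 2 sequences with 30 reads had a parent, as did 5 of 46 with 20 reads and 10%. In both of these WT sets, 0 differed by A to C or G to T only. With 1 substitution allowed, 3 KO-only members matched a transcript in place of 0. Members in shared-stretch families numbered 2 with 16 nt and 0 with 100 reads, in place of 4, and no complementary pair was found with 16 nt, 100 reads or 2%, the alternatives run for it. The KO to WT ratio of reads related to the WT-only member (0.205) was 0.176 with miRNA scaling and 0.111 with the same first 16 nt. For reads related to the KO-only members the ratio was 0.705, 0.606 with miRNA scaling and 1.17 with the same first 16 nt, a change of direction. By construction it then leaves out related reads that start elsewhere. It also leaves out the tRNA-Gly and tRNA-Val reads that begin with the unchanged G, since the first 16 nt of those members hold G1T. By member, the ratio was 0.562 for tRNA-Val and 0.578 for tRNA-Gly, which hold most of these reads, and 1.07 to 1.88 for miR-22, miR-26a, tRNA-Pro and both 16-21 forms, while relatives of the other 3 had no WT reads. At this depth 3 reads were 1.88% to 5.13% of the KO level of the 5 members at 0 in WT.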

Other observations

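Outside the 16 to 33 nt window, 7 longer sequences passed the same limits in WT only and 1 in KO only, and none shorter than 16 nt did in either library. The longer WT-only sequences had 39 to 42 nt. The most read of them, with 80 reads in WT and 3 in KO (4.30%), matched Snord68, a small nucleolar RNA that guides chemical modification of ribosomal RNA and lies within *Rpl13*. The KO-only sequence had 47 nt, 50 reads in KO and 0 in WT, and matched Snord55, also a small nucleolar RNA. With reads of 50 bp these lengths lie near the longest the tables can hold.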
